A study of Mus musculus with 16 samples.

Results

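The 24 h arrays of a time course in autoreactive mouse B cells were compared across genotypes, with the Tlr7/9-/- (double knockout) array set against the arrays of WT, Tlr7-/- and Tlr9-/- cells. These are 4 of the 16 arrays of the series. A gene was described where the double knockout lay at least 1 log2 unit (2-fold) below the lowest or above the highest of the other 3 arrays. Of 22328 genes with a symbol on the array, 13339 were bright enough to be tested at 24 h. The double knockout was lower than the range of the other genotypes by that distance at 314 genes (2.35% of those tested) and higher at 246 genes (1.84%), together 4.2%. Those values chose the genes, so the 24 h differences are a description of 4 arrays and not a test.

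All cells were B cells from the spleen of AM14 mice, which express a B cell receptor against IgG as a self antigen. They were taken untreated at 0 h or after 6, 24 or 42 h with PL2-3, a monoclonal autoantibody against chromatin, and 1 array was used per genotype and time. The sample carried Cy5, and Cy3 carried a pool of unstimulated AM14 B cell RNA from all 4 genotypes, so that a log2 ratio of 0 is the level in unstimulated cells. There were no replicates and no dye swap, and the age and sex of the mice, the purity of the cells, the dose of PL2-3 and any combining of RNA from several mice are not stated in the sources used here.

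PL2-3 bound to chromatin is taken up through the B cell receptor and carries nucleic acid into endosomes. There TLR7 senses single-stranded RNA and TLR9 senses DNA, and both signal through the adaptor MyD88 to NF-kB and interferon regulatory factors. B cells that receive receptor and TLR signals together grow, enter the cell cycle and secrete cytokines, while genes of the resting mature B cell are turned down. Cells without both receptors keep the B cell receptor but lack these endosomal sensors.

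On the double knockout array 49.5% of spots were well above background in Cy5, against 48.9% to 55% on the other 3 arrays at 24 h and 37.4% to 62.7% over the series. The WT and Tlr7 knockout arrays lay on 1 slide and the Tlr9 knockout and double knockout arrays on another, at every time, so the absence of TLR9 and the slide cannot be told apart. Within the slide it shares with the Tlr9 knockout, the double knockout was at least 2-fold lower at 601 genes (4.51%) and higher at 436 (3.27%). The bright Tlr7 probes followed the labels. One read 0.36 in the double knockout and -0.20 in the Tlr7 knockout at 24 h, against 0.91 in WT and 1.64 in the Tlr9 knockout. Over all 16 arrays its mean was -0.13 (SD 0.42, n = 8) without Tlr7 and 1.12 (SD 0.47, n = 8) with it (2-sided exact permutation test, p = 0.000466). The Tlr9 probe averaged -0.40 both without and with Tlr9 (SD 0.36 and 0.33, n = 8 each, exact permutation p = 0.998). Both tests take the arrays of a genotype at different times as independent, which the design does not give, so the p-values are descriptive. The Tlr9 probe thus did not separate arrays with and without Tlr9, and the TLR9 labels could not be checked. The Tlr9 knockout array lay with WT and the Tlr7 knockout at 24 h but nearer to the double knockout at 6 and 42 h (values below), and whether the 24 h array carries the right label was not tested. Without the Tlr9 knockout array the double knockout was outside the range at 423 genes below and 400 above. Leaving out an array can only keep or raise these counts, so they do not bear on the label.

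Across the 13339 genes the double knockout departed less from unstimulated cells than the others did. The SD over genes of its log2 ratios was 0.70, against 0.99 (WT), 0.98 (Tlr7 knockout) and 1.01 (Tlr9 knockout). Across genes, its Pearson correlation with the other arrays was 0.831 (WT), 0.838 (Tlr7 knockout) and 0.817 (Tlr9 knockout), and the other 3 correlated with each other at 0.935 to 0.986. Genes are not independent and all arrays share the pool. In the plot of the double knockout against the mean of the others, the genes outside the range lie mostly toward the ends of the response. The mean of the others was above 0 at 308 of the 314 lower genes and below 0 at 214 of the 246 higher ones, against 6668 of all 13339 above 0. The choice of genes used these same arrays and favours those sides, so the counts describe the chosen genes and are no test. Egr2, Nr4a2 and Egr1 were among the exceptions, high in the others and higher still in the double knockout.

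**Figure D1:**
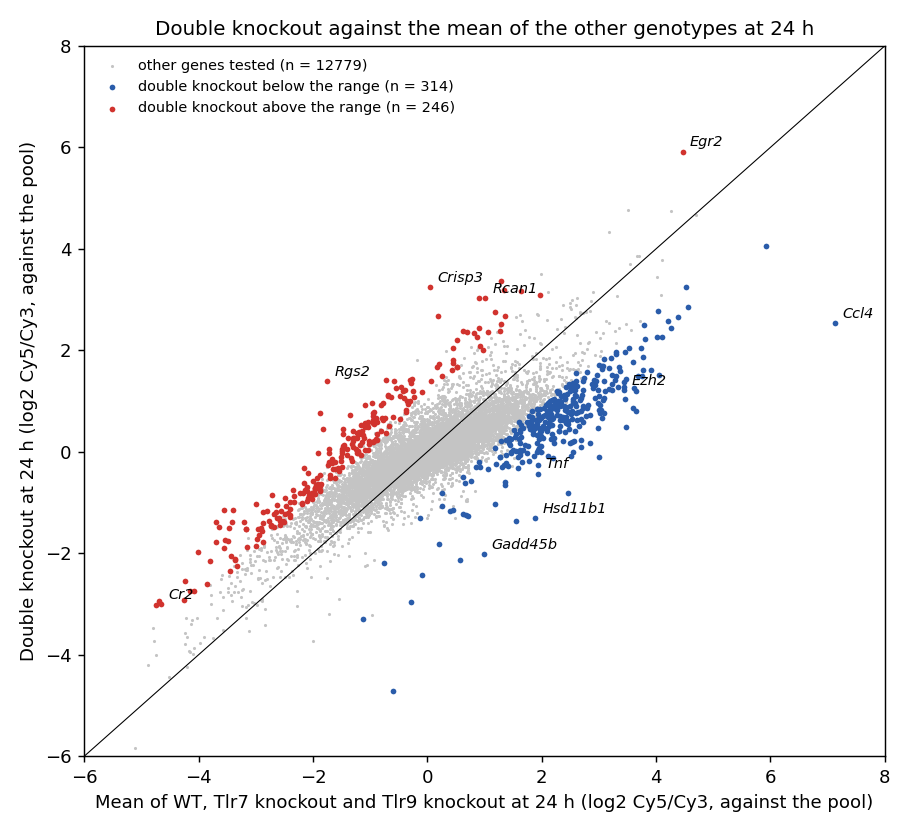
Log2 Cy5/Cy3 of the double knockout at 24 h (y axis) against the mean of WT, Tlr7 knockout and Tlr9 knockout (x axis), 1 point per gene tested, with the line of equality. Blue points are the 314 genes at least 1 below the range of the other arrays and red points the 246 genes at least 1 above it.

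The size of the split between lower and higher genes rests on the scaling within arrays. With loess, which was used throughout, 43.9% of the genes outside the range were higher. With each array centred on its median instead, 787 genes were lower and 44 higher, and 5.29% were higher. That centring moved the median difference of all genes by -0.47, and all 314 lower genes and 42 of the 246 higher genes were still outside the range. Statements on higher genes are therefore relative to the other genes of the array.

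The lower genes began with secreted signals. Ccl4, a chemokine made by activated B cells, had the largest distance, with a log2 ratio of 2.54 in the double knockout and 7.23, 7.36 and 6.81 in WT, Tlr7 knockout and Tlr9 knockout. Its probe lies on chromosome 11 at 83478052 to 83478111 of mm9. The other genotypes stood far above unstimulated cells and close together, and the double knockout lay 4.27 below the lowest of them. Tnf, an inflammatory cytokine, was at -0.43 in the double knockout and at 1.90, 1.82 and 2.08 in the others. Il6, a B cell and plasma cell growth factor, was at 0.18 against 2.52, 2.68 and 2.39, and was not well above background in Cy5 in the double knockout. After Aquantile normalization, the mean Cy5 signal of the others was at least 5.71-fold higher than the lowest signal well above background on the double knockout array. That bound compares Cy5 between arrays on 2 slides, so it is open to differences between arrays. Lta, the lymphotoxin related to Tnf, was at -2.43 against -0.16, -0.32 and 0.23. Ccl3, which neighbours Ccl4 in function, was at 2.26 against 4.12, 4.05 and 3.87. For each of these 5 genes the double knockout lay below every other array, as the choice of genes requires. Csf1, a growth factor of macrophages, went the other way, at 3.20 in the double knockout and 1.17, 1.07 and 1.79 in the others. Of 16 cytokines and chemokines tested, these 5 were lower and Csf1 higher, and the median difference from the mean of the others was -0.70, against 0.00 over all genes.

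Several of the remaining lower genes are enzymes, stress genes and regulators. Hsd11b1, an enzyme that activates glucocorticoids, was at -1.31 in the double knockout and at 1.76, 1.79 and 2.12 in the others, so it was below unstimulated cells in the double knockout and above them elsewhere. Gadd45b, a gene of the stress response that NF-kB induces, was at -2.02 against 1.02, 1.14 and 0.83. For both genes the double knockout and the others lay on opposite sides of the unstimulated level. Pcbd1, an enzyme of pterin recycling, was at -0.11 against 2.87, 3.24 and 2.91, with Cy5 at least 22.7-fold higher in the mean of the others. Alpl, an alkaline phosphatase, was at 0.17 against 2.72, 2.81 and 3.03, with Cy5 at least 10.4-fold higher in the mean of the others. Neither of these enzymes was well above background in the double knockout, as at 11 of the 314 lower genes in all. Their log2 ratios there stood near 0, and both folds are against their own Cy5 readings on that array. Batf, a transcription factor needed for class switching, was at 0.47 against 3.05, 3.20 and 2.70. Plxnd1, a semaphorin receptor, was at -0.82 against 2.36, 2.38 and 2.66. Both receptor and factor were near or below the unstimulated level only on the double knockout array of the 4. The others of the 15 largest distances were Cd5l, Grhl1, Ell3, Tent5c, Fut8, Niban1, Niban3 and Rab34, at distances of -2.78 for Cd5l to -2.25 for Rab34.

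**Figure D2:**
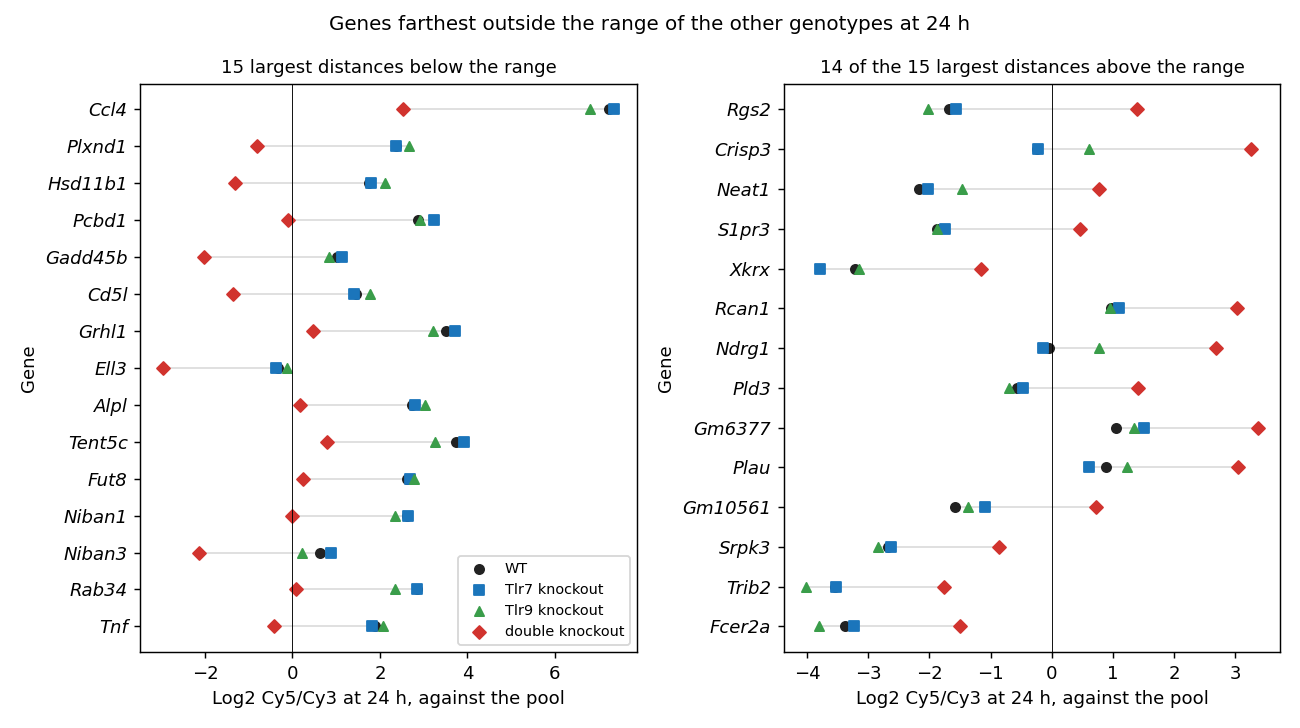
Log2 Cy5/Cy3 at 24 h on each of the 4 arrays for the 15 genes farthest below (left) and 14 of the 15 farthest above (right) the range of the other genotypes. The red diamonds of the double knockout stand apart from a tight group of the other 3 arrays, by 4.27 for Ccl4 and 2.95 for Rgs2.

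Genes of DNA replication and cell division made up the largest group of lower genes among the lists. Of 32 tested, 23 were at least 1 below the range and none above it, and the median difference was -1.49. Rrm2, the ribonucleotide reductase subunit that supplies nucleotides for DNA synthesis, was at 1.51 in the double knockout and 3.92, 3.67 and 4.57 in the others. Ezh2, a histone methyltransferase of dividing cells, was at 1.22 against 3.51, 3.26 and 3.55. Ccna2, the cyclin of S and G2 phase, was at 1.05 against 3.01, 2.99 and 4.40, and Birc5, a protein of chromosome segregation, at 1.20 against 3.24, 3.04 and 4.69. For the cyclin and Birc5, the Tlr9 knockout stood above WT and the Tlr7 knockout as well. All 4 genes were above unstimulated cells on every array, including the double knockout. Of the replication helicase, Mcm3, Mcm4, Mcm6 and Mcm7 were past 1 and Mcm2 and Mcm5 were not (distances of -0.81 for Mcm2 and -0.61 for Mcm5). Pcna, the sliding clamp, had a distance of -0.60, and Cdt1, which licenses origins, lay inside the range. With median centring 30 of the list were past 1, and with no background correction, with the processed signals and with Cy5 alone 22 to 23.

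Genes of growth and metabolism were lower by smaller amounts. Over all genes tested, 2.35% were at least 1 below the range, and the share below it at any distance was not computed. Counts of list members at any distance therefore have no background beside them. Of 24 genes of the MYC network and ribosome biogenesis, 22 lay below the range, 3 of them by at least 1, and the median difference was -0.80. Odc1, which begins polyamine synthesis and is a target of MYC, was at 1.68 against 3.01, 2.97 and 3.17. Myc itself was at 2.38 against 3.35, 3.18 and 3.31, a distance of -0.80 that is short of 1. So the double knockout was the lowest for both, and all 4 arrays were above the unstimulated level. Of 17 glycolysis genes, 16 lay below the range, 4 of them by at least 1 (Ldha, Hk2, Pgam1 and Tpi1), with a median difference of -0.83. Ldha, which turns pyruvate into lactate, was at 0.91 against 2.54, 2.35 and 2.62. Hk2, which traps glucose in the cell, was at 1.93 against 3.21, 3.44 and 3.25. Among 16 genes of the amino acid response and one-carbon metabolism, Mthfd2, Asns and Psat1 were past 1, with a median of -0.72. Asns, asparagine synthetase, was at 2.58 against 4.35, 4.37 and 3.90. Of 19 genes of sterol and fatty acid synthesis only the desaturase gene Scd2 passed 1 (2.04 against 3.61, 3.53 and 4.08), and the median was -0.52. Derl3, of the pathway that removes misfolded proteins from the endoplasmic reticulum, was the 1 gene of 20 of that list past 1, at -0.32 against 1.52, 1.45 and 1.81.

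Upstream sequences of tested genes were searched for the letters of 4 known binding motifs, since replication genes are classical E2F targets and cytokine genes NF-kB targets. RefSeq (GRCm38.p6) gave 250 bases before the start for 10499 of the tested genes, 253 of the lower and 194 of the higher ones. Matches to TTTCCCGC or TTTGGCGC (E2F, both strands) were in 15 of the 253 lower promoters (5.93%), 3 of the 19 lower replication genes (15.8%), 2 of the 194 higher ones (1.03%) and 2.49% of all. The E-box CACGTG was in 8.7% of lower, 7.73% of higher and 8.34% of all promoters. The NF-kB motif (GGGA, any base, then TTTCC, both strands) was in 2 lower (0.791%) and 4 higher promoters (2.06%) and in 0.343% of all. GCGTGGGCG (EGR, both strands) was in 1 lower (0.395%) and 4 higher promoters (2.06%) and in 1.03% of all. Matches of different motifs overlapped in 2 of the 10499 promoters (E2F with EGR), none of a gene outside the range. The replication genes with the largest distances and an E2F match, and the lower gene with the largest distance and an NF-kB match, are shown 5′ to 3′ on the gene's strand, with the matching letters in capitals. Cdc6 (chr11:98907901-98908150, plus strand) loads the helicase at origins, and Mcm6 (chr1:128359706-128359955, minus strand) is a helicase subunit with 2 matches. Il6 lies at chr5:30012864-30013113 on the plus strand.
Cdc6: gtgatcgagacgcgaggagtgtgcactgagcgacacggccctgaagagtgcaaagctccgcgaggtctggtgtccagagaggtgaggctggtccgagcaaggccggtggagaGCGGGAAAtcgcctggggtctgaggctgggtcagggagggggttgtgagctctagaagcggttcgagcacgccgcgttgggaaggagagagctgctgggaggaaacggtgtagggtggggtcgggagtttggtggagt
Mcm6: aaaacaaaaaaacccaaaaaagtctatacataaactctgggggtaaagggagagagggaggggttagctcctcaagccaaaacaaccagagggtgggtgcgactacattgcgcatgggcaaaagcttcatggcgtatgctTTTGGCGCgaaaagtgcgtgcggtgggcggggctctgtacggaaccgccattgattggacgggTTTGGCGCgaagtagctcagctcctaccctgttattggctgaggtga
Il6: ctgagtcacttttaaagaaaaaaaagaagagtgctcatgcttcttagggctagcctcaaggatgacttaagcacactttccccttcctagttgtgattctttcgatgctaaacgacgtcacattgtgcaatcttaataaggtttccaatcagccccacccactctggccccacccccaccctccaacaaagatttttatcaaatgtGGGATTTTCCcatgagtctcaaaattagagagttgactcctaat
A match is a description of letters and does not show that a factor was bound in these cells. Cdc6 was at 0.72 in the double knockout and 2.93, 2.56 and 3.03 in the others, and Mcm6 at 2.04 against 3.65, 3.39 and 3.52.

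The higher genes held genes of the resting B cell and of homing. Of 23 genes of mature B cell identity, 21 lay above the range, 9 of them by at least 1, and none was at least 1 below it. Over all genes tested, 1.84% were at least 1 above the range. The share above it at any distance was not computed, here or for the later lists. The median difference was 0.78, and centred on the array median it was 0.12 (0.60 above the median of all genes) with no gene past 1 above the range. With the processed signals 7 genes were past 1 above it, and with Cy5 alone 4. Fcer2a, the low-affinity IgE receptor CD23, was at -1.50 in the double knockout and -3.37, -3.23 and -3.81 in the others. Cr2, the complement receptor CD21, was at -3.0 against -4.44, -4.56 and -4.95. Both surface receptors were below unstimulated cells everywhere, and least so in the double knockout. Fcmr, the receptor for IgM, was at 0.05 against -1.87, -1.68 and -1.61, so that only the double knockout array stood at the unstimulated level. H2-Aa, a chain of MHC class II, was at -0.64 against -1.84, -1.85 and -2.07. With median centring none of these 4 genes was past 1, at distances from 0.62 for Fcer2a to 0.02 for H2-Aa. Fcmr was short of 1 with Cy5 alone also, at 0.75.

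Of 18 genes of quiescence and homing, 15 lay above the range, 4 of them by at least 1, with a median difference of 0.78 (0.27 with median centring, 0.74 above the median of all genes). Of these, 3 are described. S1pr1, the receptor that guides exit from lymphoid tissue, was at -2.94 against -4.80, -4.56 and -4.75, and Itgb7, a gut-homing integrin chain, at -3.02 against -4.90, -4.70 and -4.64. Ccr6, a chemokine receptor, was at 0.05 against -1.65, -1.36 and -1.45. In these 3 homing genes the double knockout was the highest of the arrays, as their choice requires. Il7r went the other way, at -1.30 against 0.92, 0.98 and -0.43. With median centring S1pr1, Itgb7 and Ccr6 came to distances of 0.89, 0.75 and 0.35. Among 11 marginal zone and B1 genes, S1pr3 (0.45 against -1.87, -1.74 and -1.88), a sphingosine 1-phosphate receptor of marginal zone B cells, and Cd5 (1.41 against -0.40, -0.11 and -0.42), an inhibitor of B cell receptor signalling, were past 1. The median of that list was 0.35.

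Immediate early genes of the B cell receptor were mixed. Of 21 tested, Egr1, Egr2, Nr4a2, Dusp2 and Dusp6 were at least 1 above the range, Atf3 was at least 1 below it, and the median difference was 0.67 (0.10 with median centring, which is 0.57 above the median of all genes, and where none of the 5 was past 1). Egr2, a transcription factor induced by antigen receptors, was at 5.91 in the double knockout and 4.44, 4.60 and 4.35 in the others. Egr1 was at 2.76 against 1.27, 0.97 and 1.31, and Nr4a2, an orphan nuclear receptor, at 3.09 against 2.02, 1.94 and 1.98. These 3 were above unstimulated cells on all 4 arrays, and highest without both receptors. Atf3, a factor of the stress response, was at 0.22 against 2.71, 2.89 and 2.08. Rcan1, a calcineurin inhibitor that is itself induced by calcium signals, was at 3.02 against 0.98, 1.11 and 0.96, and was past 1 with median centring also.

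Rgs2, which limits signals of G-protein-coupled receptors, had the largest distance above the range. It was at 1.39 in the double knockout and at -1.69, -1.56 and -2.02 in the others, the opposite side of the unstimulated level. This was seen on 1 of its 2 probes, which lies on chromosome 1 at 145848830 to 145848889 of mm9. Crisp3, a secreted cysteine-rich protein, was at 3.25 against -0.24, -0.23 and 0.61. Neat1, the long noncoding RNA of paraspeckles, was at 0.77 against -2.16, -2.02 and -1.47. On these 3 genes the double knockout stood above the unstimulated level, and the others near or below it. Pld3, an endolysosomal nuclease that degrades single-stranded nucleic acid, was at 1.40 against -0.58, -0.47 and -0.70. Plau, the urokinase, was at 3.04 against 0.88, 0.61 and 1.23. The 15 largest distances also held Xkrx, Ndrg1, Gm6377, Gm10561, Srpk3 and Trib2 beside those given above. At the threshold, Plxnb2 (distance -1.002, lower) and Cnn2 (1.001, higher) were just past it, and C1qbp (-0.999, lower) and Fosl2 (higher) just short of it.

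**Figure D3:**
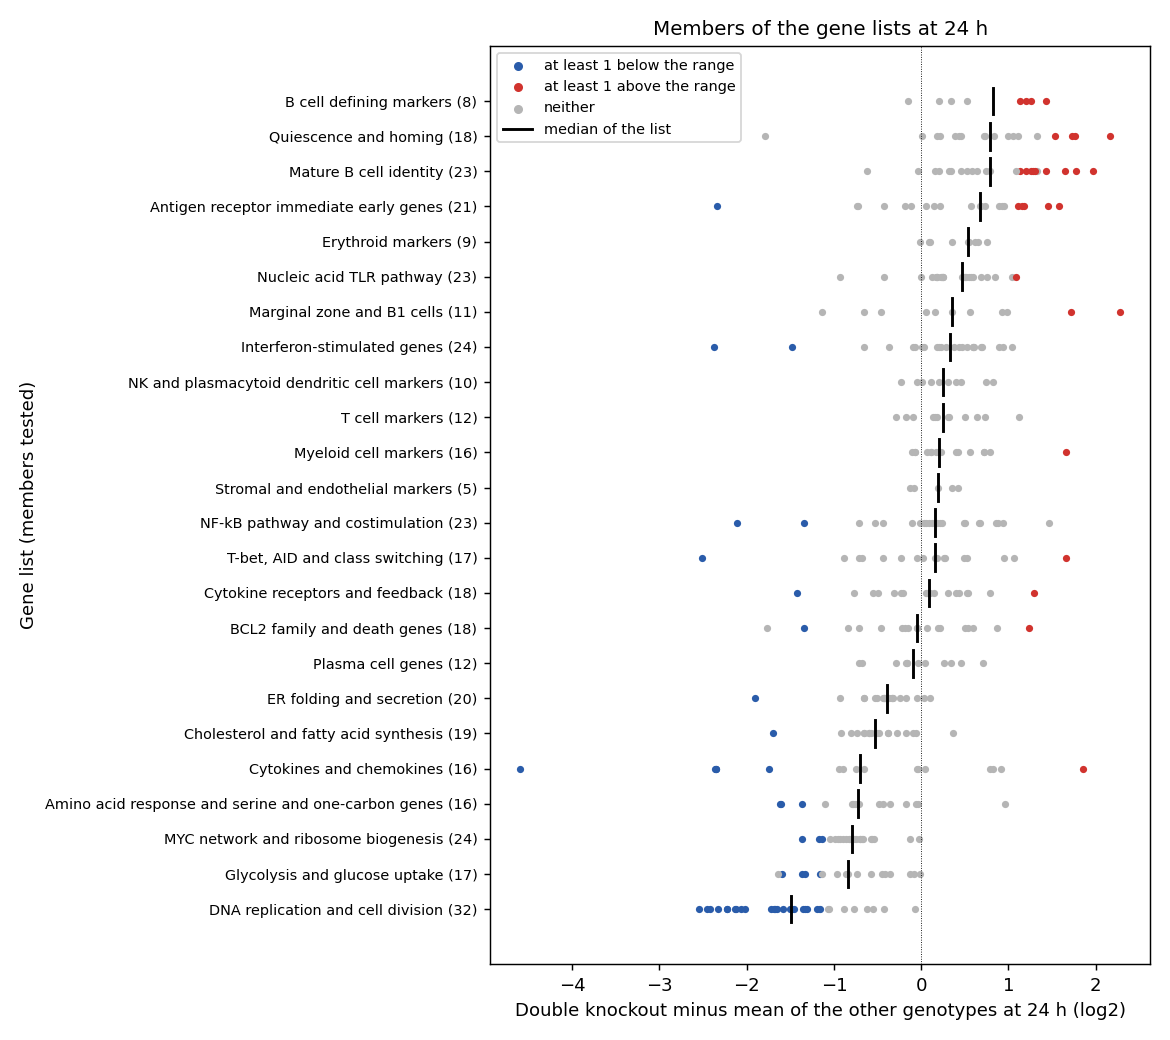
Difference of the double knockout from the mean of the other 3 genotypes at 24 h (x axis, log2) for each tested member of the 24 gene lists (rows, with the number tested), with the list's median as a black bar. The replication list has its median at -1.49 with 23 blue points, and the mature B cell list at 0.78 with 9 red points, none of which passes 1 when arrays are centred on the median.

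The lists nearer to the deleted receptors held 1 or 2 genes past 1 each, beside 2.35% lower and 1.84% higher over all genes. Of 24 interferon-stimulated genes, Ifih1 and Isg15 were at least 1 below the range and none above it. Ifih1, a cytosolic RNA sensor, was at 1.25 against 3.56, 3.46 and 3.85, and Isg15, a ubiquitin-like protein, at 0.47 against 1.68, 1.73 and 2.42. Cxcl10 and Rsad2 were also below all the others, by 0.46 and 0.20, named here after their values were seen. A further 10 members lay above the range, and with the processed signals 4 members were past 1 below it. The list's median difference was 0.33 (-0.14 with median centring, 0.34 above all genes), 10 members lay inside the range, and the median member read 0.24 in the double knockout against -0.22 (WT), -0.24 (Tlr7 knockout) and 0.49 (Tlr9 knockout). Of 23 NF-kB pathway and costimulation genes, Cd44, an adhesion receptor of activated cells (0.92 against 2.88, 2.80 and 3.41), and Bcl2l1, which encodes the survival protein BCL-XL (0.66 against 2.09, 1.99 and 1.91), were past 1. The median there was 0.16, or -0.54 with median centring (-0.07 from all genes). Among 23 members of the nucleic acid TLR list, Lgmn, an endosomal protease that cuts TLR proteins, was past 1 (-0.93 against -1.97, -1.94 and -2.15), and the median was 0.47 (-0.30 with median centring, 0.17 above all genes). Among 12 plasma cell genes none was past 1, and the median was -0.10. Xbp1 was at 0.19 against 0.38, 0.32 and 0.35.

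In 3 other lists 1 gene was past 1 in each direction, a count too small to set apart from the 2.35% and 1.84% over all genes. Of 18 cytokine receptor and feedback genes, Pim1, a kinase induced by cytokines, was lower (-2.18 against -0.97, -0.85 and -0.45) and Il2rg, the common gamma chain, was higher (0.05 against -1.25, -1.17 and -1.31). Of 18 BCL2 family and death genes, Bcl2l1 was lower and Bmf, a death-promoting member, was higher (0.03 against -1.11, -1.15 and -1.39). Batf and Itgam did so among 17 genes of T-bet, AID and class switching, where Tbx21, which encodes T-bet, was at 0.29 against -0.08, -0.18 and -0.33. With median centring Il2rg, Bmf and Itgam were not past 1.

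The defining B cell markers were tested in 8 of 8 cases and were above background in the double knockout. Their median was -1.50 there and -2.27, -2.19 and -2.30 in WT, Tlr7 knockout and Tlr9 knockout, and Cd79a, Cd79b, Cd22 and Ms4a1 were at least 1 above the range. With median centring the list's median difference was -0.01 (0.46 above all genes), and none was past 1. With the processed signals 2 were past 1, and with Cy5 alone 1. With Cy5 alone Ms4a1, Cd79b and Cd79a came to distances of 0.67, 0.48 and 0.30. Markers of other cells were few outside the range, with Itgam of 16 myeloid markers above it and none of 12 T cell, 10 NK and plasmacytoid dendritic cell, 9 erythroid and 5 stromal markers past 1. The median myeloid marker was at -1.72 in the double knockout and -2.23 to -1.98 in the others, and the median T cell marker at -0.06 against -0.61 to -0.32. The median differences were 0.21 and 0.25, and 0.26, 0.53 and 0.19 for the NK and plasmacytoid, erythroid and stromal lists, and with median centring, which moved the median of all genes by -0.473, they stood at -0.27 to -0.06, which is 0.205 to 0.417 above all genes. Above background in the double knockout were 14 myeloid, 11 T cell, 7 NK and plasmacytoid, 9 erythroid and 5 stromal markers, and their part in the results was not tested. In RNA of a mixed sample, fewer cells of a type and less RNA per cell cannot be told apart.

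A limma fit of the same 4 arrays, which takes the 3 other genotypes as replicates, called 904 genes lower (6.78%) and 987 higher (7.4%) at an adjusted p of 0.05. It covers the contrast that chose the genes, and 264 of the 314 lower and 237 of the 246 higher genes were among its calls. That overlap follows from the choice and is no separate test. With median centring the fit called 42 lower and 1 higher, and with the processed signals 0 in both directions (1992 lower and 2137 higher at an unadjusted p under 0.05). With 2 residual degrees of freedom the counts moved with single arrays. When the Tlr9 knockout is left out, the double knockout is alone on its slide. Its contrast then cannot be told apart from the slide or the absence of TLR9. Without WT the fit called 99 lower and 59 higher, without the Tlr7 knockout 325 and 277, and without the Tlr9 knockout 3169 and 2818.

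Most genes outside the range at 24 h were genes whose level had moved since 0 h in the other genotypes. The counts that follow use the 24 h arrays that chose the genes, and the same shares over all genes tested were not computed. At 279 of the 314 lower genes, WT, Tlr7 knockout and Tlr9 knockout were each at least 1 above their own 0 h array. At 190 of these 279 the double knockout was within 1 of its own 0 h value, at 88 it was at least 1 above it and at 1, Hsd11b1, at least 1 below it. At 145 of the 246 higher genes the others were each at least 1 below 0 h, and there the double knockout was within 1 of 0 h at 82, at least 1 below it at 58 and at least 1 above it at 2. A smaller set of 39 higher genes was within 1 of 0 h in all the others, and the double knockout was at least 1 above its 0 h value at 23 of them. Taken as changes from 0 h, which share the 24 h arrays, the double knockout was outside the range by 1 or more at 278 genes below (2.24% of 12389) and 302 above (2.44%).

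Arrays of the other times were not used to choose these genes. At 6 h none of 13087 genes was at least 1 below the range (0%) and 52 were above it (0.397%), and at 42 h 7 of 13400 were below (0.0522%) and 55 above (0.41%). At 0 h 6 of 12550 were below (0.0478%) and 5 above (0.0398%). Of the lower genes, none of 294 tested at 6 h and 4 of 313 tested at 42 h were outside again in the same direction, the latter being 4 of the 7 genes below the range at 42 h. They were Hsd11b1, Ell3, Lta and the interferon lambda receptor gene Ifnlr1, named here after their values were seen. Ifnlr1 was at 0.86 in the double knockout at 24 h (others 3.90, 3.80 and 3.09) and at 0.35 at 42 h (others 3.69, 4.12 and 2.08). Of the higher genes, 2 of 245 were outside again at 6 h (of 52) and 7 of 243 at 42 h (of 55), Rcan1 among them, at 3.42 against -0.64, -0.33 and 2.16. No gene was outside the range at 24 h and at both 6 and 42 h.

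In a limma fit of the 8 arrays of 6 and 42 h with time as a term, no gene of 14632 was called in either direction (0% lower and 0% higher). The smallest adjusted p was 0.473, and 405 genes lower (2.77%) and 608 higher (4.16%) had an unadjusted p under 0.05. Among the 24 h genes, 235 of the 314 lower ones had the same sign there, 24 of them with an unadjusted p under 0.05, and 232 of the 246 higher ones, 41 of them so. Over all 13255 genes tested at 24 h and in this fit, 50.9% were negative and 48.9% positive. For the lower genes the median difference of the double knockout from the Tlr9 knockout, on its own slide, was -0.01 at 6 h and 0.51 at 42 h, against -0.51 from WT and -0.67 from the Tlr7 knockout at 42 h. For the higher genes it was 0.01 and 0.03 from the Tlr9 knockout, against 0.87 from WT and 0.93 from the Tlr7 knockout at 42 h. Within the slide, then, the 24 h direction was not seen at 42 h in the median of the lower genes, and hardly in that of the higher ones. The smallest p among them was that of Rftn2, a lipid raft protein (0.93 ± 0.20, SE, unadjusted p = 0.002, limma adjusted p = 0.693), followed by Rgmb, Wnt10b, Zmynd19 and Bcat1. Without the Tlr9 knockout arrays the fit called 45 genes lower and 92 higher. The double knockout is then alone on its slide, so these calls cannot be told apart from the slide or the absence of TLR9.

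**Figure D4:**
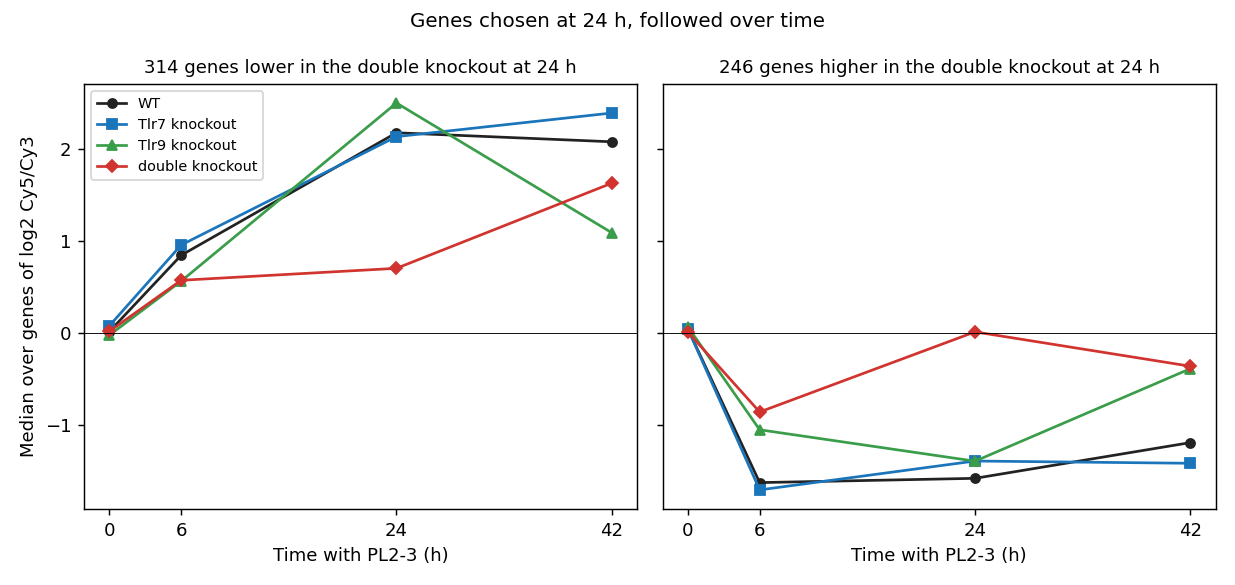
Median log2 Cy5/Cy3 (y axis) of the 314 lower (left) and 246 higher (right) genes at each time (x axis, h) in each genotype, 1 array per point. At 24 h the double knockout stands at 0.70 against 2.13 to 2.50 on the left and at 0.01 against -1.58 to -1.39 on the right, as the choice of genes requires, while at 6 and 42 h it lies near the Tlr9 knockout or inside the range of the others.

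The Tlr9 knockout changed its place between times. Over all genes tested at 24 h, its level was nearer to the double knockout than to the mean of WT and Tlr7 knockout at 61.7% of genes at 6 h, 33.4% at 24 h and 62.2% at 42 h. For the 314 lower genes this share was 66.9% at 6 h and 83.8% at 42 h, and for the 246 higher genes 82.9% and 78.5%. Its Pearson correlation across genes with the double knockout was 0.97 at 6 h, 0.817 at 24 h and 0.911 at 42 h, and with WT 0.951, 0.94 and 0.73. At 6 and 42 h, then, the genes fell more often into pairs by TLR9 genotype, which is also by slide. At 24 h the Tlr9 knockout stood with WT and the Tlr7 knockout although it shared the slide of the double knockout. The median of the lower genes at 42 h was 1.63 in the double knockout and 1.09 (Tlr9 knockout), 2.08 (WT) and 2.39 (Tlr7 knockout) elsewhere. At 137 of these 314 genes the double knockout was at least 1 higher at 42 h than at 24 h and at none at least 1 lower. The median of the higher genes at 42 h was -0.36 in the double knockout and -0.39 (Tlr9 knockout), -1.19 (WT) and -1.42 (Tlr7 knockout) elsewhere.

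**Figure D5:**
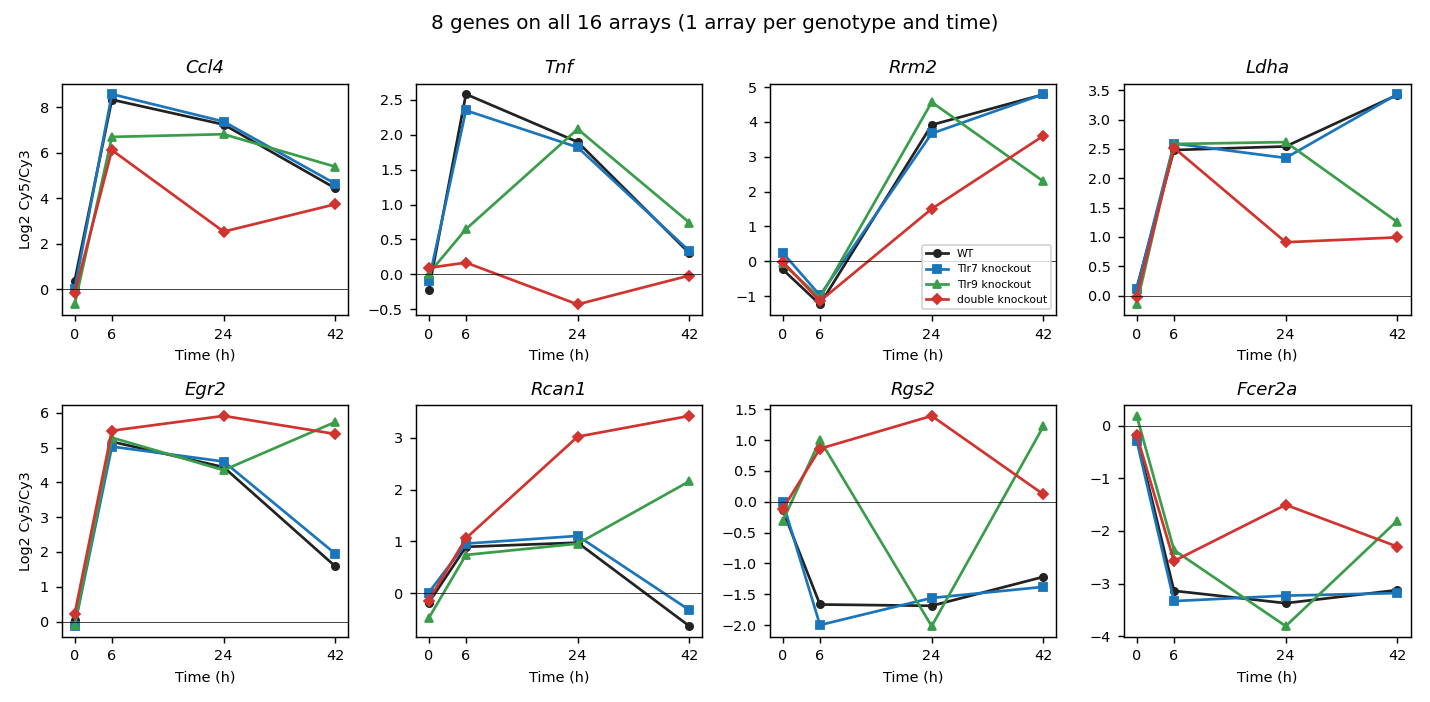
Log2 Cy5/Cy3 (y axis) of 8 genes over time (x axis, h) in the 4 genotypes, with 1 array per point and no error bars because there were no replicates. At 24 h the double knockout is the lowest array for Ccl4, Tnf, Rrm2 and Ldha and the highest for Egr2, Rcan1, Rgs2 and Fcer2a, by 4.27 for Ccl4 and 1.31 for Egr2.

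Single genes show how these courses differed. Ccl4 in the double knockout was at 6.11 at 6 h, 2.54 at 24 h and 3.74 at 42 h, against 8.32, 7.23 and 4.44 in WT. It was thus high at 6 h on every array, and apart from the others at 24 h. Tnf in the double knockout stayed between -0.43 and 0.17 on its 4 arrays, while the Tlr9 knockout was at 0.65 at 6 h and 2.08 at 24 h and WT at 2.58 and 1.90. Rrm2 in the double knockout was at -1.14 at 6 h, 1.51 at 24 h and 3.60 at 42 h, against -1.24, 3.92 and 4.79 in WT. The replication list as a whole had medians of 0.07, 0.80 and 2.28 at these times in the double knockout, and at 42 h 2.50 in WT and 1.18 in the Tlr9 knockout. Ldha was at 2.48 to 2.59 on the 4 arrays at 6 h, and at 42 h it was at 0.99 in the double knockout, 1.25 in the Tlr9 knockout, 3.42 in WT and 3.44 in the Tlr7 knockout. Egr2 at 42 h was at 5.39 in the double knockout and 5.74 in the Tlr9 knockout, against 1.59 in WT and 1.95 in the Tlr7 knockout.

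Some genes had several tested probes. Of the 77 lower genes with more than 1 tested probe, all probes were past 1 at 20 and none had a probe past 1 on the other side. For the 82 such higher genes the counts were 18 and 0. All 3 probes of Birc5 and both probes of Plxnd1 and Cr2 were past 1, and 1 of the 3 probes of Itgam. Bcl2l1 and Ifih1 were each past 1 on 1 of 2 probes. With the mean of the probes, Nolc1 (-0.795) and Srm (-0.876) of the MYC list, Psat1 (-0.917), Bcl2l1 (-0.857) and Bcat1 (-0.84) were short of 1 below the range. Itgam (0.545) and Cnn2 (0.945) were short of 1 above it.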

How the data were processed

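Per the labels, total RNA was labelled by amplification, with Cy5 for each sample and Cy3 for the pool. Per the file headers, Agilent Feature Extraction 10.1.1.1 read the images, on an mm9 design of 62976 spots (3671 controls). Spot intensity was deposited as uncorrected mean foreground and median local background, and the deposited processed intensity is background-subtracted and dye-normalized with surrogates for dim spots. Deposited flags of 0 or 1 mark spots well above background, saturated (none) or uneven. The values the authors deposited for the series equal log10 of processed Cy5 over processed Cy3 (100% of spots within 0.001). The setting called processed signals is the same ratio in log2, with flagged spots left out and the spots of a probe averaged.

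Ratios were computed in R 4.3.3. Background correction was normexp (offset 50) and colours were balanced by loess within arrays, both in limma 3.58.1. Files were joined by the package data.table, version 1.17.8. Of 55681 probes, RefSeq named 27235 by accession, 3581 by symbol and 565 by a former symbol, and left 24300 unnamed. The brightest probe stood for a gene. Testing required either colour to be well above background on 3 or more of the 4 arrays. Fits (lmFit, eBayes) were 2-sided and adjusted by Benjamini-Hochberg. The other genotypes stand in for replicates, and p-values measure the spread between them. The number of arrays limits the precision. Scripts were tested on simulated data. For genes not above background the fold bound used Cy5 after Aquantile. It set the mean of the others against the double knockout's own signal, or against its lowest signal well above background where that was larger.

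Named genes are the 15 largest distances each way, up to 4 past 1 per list (or the 2 largest differences), those nearest the threshold, the targeted genes, those opposite at another time and the 5 smallest p-values at 6 and 42 h. 1 gene that this rule names is not reported here. Genes named beyond this were chosen after their values were seen. The members, lists and tests were chosen with earlier results of these data known. Alternatives were median centring, no background correction, the processed signals, Cy5 alone, other filters, distances and probe rules, the slide as a block and leaving out arrays.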

Additional observations from a re-analysis of the deposited data

Results flagged for a closer look

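At 3 genes the change from 0 h to 24 h was at least 1 in one direction in the double knockout and at least 1 in the opposite direction in each other genotype. Genes with smaller opposite changes, such as Gadd45b, are not counted. The difference was not tested since each genotype and time has 1 array. Hsd11b1 changed by -1.42 in the double knockout and by 1.65, 1.91 and 2.05 in WT, Tlr7 knockout and Tlr9 knockout. At 6 h the Tlr9 knockout was low as well, at -3.04 beside -3.44 in the double knockout, -0.115 in WT and 0.05 in the Tlr7 knockout. Rgs2 changed by 1.51 in the double knockout and by -1.55, -1.56 and -1.70 in the others. Orai2, a calcium channel gene, changed by 1.98 in the double knockout and by -2.54, -2.62 and -2.35 in the others. Its double knockout value at 0 h was -3.04, which was 2.91 below the range of the other 0 h arrays, so its change rests on that single array. In all, 2 genes of 12389 moved by at least 1 upward in the double knockout and downward in the others, and 1 the reverse.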

How the results depend on the processing

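No paired analysis was possible because the labels give no replicate numbers, and the slide was fitted as a block instead. At 24 h that fit compares the double knockout with the Tlr9 knockout alone. Its only residual degree of freedom is the difference between WT and the Tlr7 knockout on the other slide. In fits that leave out the Tlr9 knockout, the double knockout and the slide cannot be told apart. Where a count below moved with a setting other than the distance, the filter or the arrays left out, the cause was not tested. Genes are given as lower and then higher. At 24 h outside the range there were 787 and 44 with median centring, 584 and 450 with the processed signals, 601 and 436 against the Tlr9 knockout alone, 922 and 943 at 1.5-fold, 30 and 4 at 4-fold, and 335 to 423 and 257 to 400 leaving out 1 array. Leaving out an array can only keep or raise these counts. The limma fit at 24 h called 42 and 1 with median centring, 0 and 0 with the processed signals (1992 and 2137 at an unadjusted p under 0.05), 488 and 457 with Cy5 alone, 2280 and 2628 with the slide as a block, and 99 to 3169 and 59 to 2818 leaving out 1 array. The limma fit at 6 and 42 h called 3 and 1 with the slide as a block and 0 to 45 and 0 to 92 leaving out a genotype or time. The change from 0 h gave 639 and 73 with median centring, and 582 higher with the processed signals. At 0 h median centring gave 11 lower, no background correction 9 higher, the processed signals 47 and 37, Cy5 alone 11 lower, 1.5-fold 22 and 22, and 4-fold 1 and 3. At 6 h no background correction gave 2 lower, no filter 6 lower, the processed signals 60 and 112, 1.5-fold 13 and 113, and 4-fold 12 higher. At 42 h median centring gave 89 higher, the processed signals 90 and 152, Cy5 alone 12 lower, 1.5-fold 42 and 210, and 4-fold 0 and 5. Of 81 named genes past 1, 55 were past 1 with median centring, 81 without background correction, 74 with the processed signals, 70 with Cy5 alone and 74 with the mean of the probes, and none changed side. Dim genes have only a bound, and precision is limited by 1 array per genotype and time.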

Other observations

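Probes without a gene symbol were compared in the same way. Of 8801 such probes tested at 24 h, the double knockout was at least 1 below the range of the other genotypes at 58 and above it at 142, together 2.27%.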
